A study of Homo sapiens with 4 samples.

Results

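The proteasome genes described here are those whose symbol is PSM followed by a letter from A to G and a number. They encode the core, the cap, the activators, the inhibitor and the dedicated assembly factors of the proteasome, and 47 of the 17215 genes in the deposited table carried such a name. They were compared between Cal51, a triple-negative human breast cancer cell line, and Cal51R, its doxorubicin-resistant counterpart. Each line was represented by 2 libraries of polyadenylated RNA, and the labels name no other treatment. The sources used here do not give the drug dose, the time in drug, whether drug was present at harvest, or whether Cal51R is a clone or a pool. The stated purpose was to look for deubiquitinases that regulate resistance, and the proteasome is the machine whose substrates those enzymes edit. The labels do not state that replicate libraries were separate cultures, and p-values therefore measure only how these libraries vary, which may be technical variation.

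The libraries held 21636996 and 18537714 estimated reads for Cal51 and 17852379 and 19854849 for Cal51R, and 13674 genes had enough reads to be tested. A count of 3 reads, taken as the floor of detection, was 0.139 to 0.175 CPM, where CPM is the count scaled to 1000000 reads. Libraries of the same line correlated across genes at r = 0.990 and 0.992 on the log2 CPM scale, against 0.848 to 0.856 between lines. Of 8 tested genes listed for a triple-negative epithelial breast cancer line 4 fell, 2 rose and 2 did not pass. The 4 that fell, named after their values were seen, were KRT8, KRT18, EPCAM and VIM, the last a mesenchymal marker. The 2 that did not pass, ESR1 and ERBB2, were listed for the triple-negative label and are not epithelial markers. KRT8, the most abundant, stood at 7194 and 8532 CPM in Cal51 and 3960 and 3313 CPM in Cal51R. The 2 that rose, named after their values were seen, were KRT19, from 3.49 and 3.37 to 83.2 and 78.0 CPM, and CDH1, from 1.23 and 0.989 to 1.75 and 2.92 CPM. ESR1, the oestrogen receptor, had 19 to 56 reads in each library. RNA was measured in bulk, so fewer cells of a kind and less RNA per cell cannot be told apart. The values are RNA levels, and protein and enzyme activity were not measured.

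The proteasome degrades proteins that carry ubiquitin chains. Its core is a barrel of stacked rings: outer rings of alpha subunits (PSMA genes) gate the entrance, and inner rings of beta subunits (PSMB genes) hold the catalytic sites, of which PSMB6 supplies beta1, PSMB7 beta2 and PSMB5 beta5. A regulatory cap built from a ring of ATPases (PSMC genes) and non-ATPase subunits (most PSMD genes) recognises, unfolds and feeds in substrates. Cells that respond to interferon replace the catalytic subunits by PSMB9, PSMB10 and PSMB8, giving the immunoproteasome, which favours peptides that fit MHC class I molecules, and they pair it with the activator made of PSME1 and PSME2. When proteasome capacity falls short, the transcription factor NFE2L1 raises the genes of core and cap together through antioxidant response elements in their promoters.

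The promoters of the 5 interferon-linked genes are shown because all 5 rose in Cal51R, a choice made after their values were seen. PSMB1, PSMB6, PSMC3 and PSMC5 rose as well, and their promoters are not shown. RefSeq (GRCh38.p14) gave a promoter for 41 of the 47 genes, and each sequence below is the 250 bases before the annotated start, 5′ to 3′ on the strand of the gene. Both strands of every promoter were searched for TGACNNNGC, the antioxidant response element, CCAAT, the CCAAT box, GAAANNGAA, a core of the interferon-stimulated response element, and TTCNNNGAA, the gamma-activated site, and capitals mark each match. The windows are chr6:32844680-32844929 (minus strand) for PSMB8, chr6:32853942-32854191 (plus) for PSMB9, chr16:67936851-67937100 (minus) for PSMB10, chr14:24135944-24136193 (plus) for PSME1 and chr14:24146611-24146860 (minus) for PSME2.
PSMB8: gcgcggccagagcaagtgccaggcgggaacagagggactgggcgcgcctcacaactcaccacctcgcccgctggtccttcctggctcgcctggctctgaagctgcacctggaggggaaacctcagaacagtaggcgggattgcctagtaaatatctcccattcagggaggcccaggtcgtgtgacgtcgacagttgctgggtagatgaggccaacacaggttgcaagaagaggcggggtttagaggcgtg
PSMB9: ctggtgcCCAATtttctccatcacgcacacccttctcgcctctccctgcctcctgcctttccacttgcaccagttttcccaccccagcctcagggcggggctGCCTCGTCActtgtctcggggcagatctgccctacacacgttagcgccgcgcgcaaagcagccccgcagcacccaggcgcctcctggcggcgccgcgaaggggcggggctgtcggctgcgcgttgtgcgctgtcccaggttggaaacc
PSMB10: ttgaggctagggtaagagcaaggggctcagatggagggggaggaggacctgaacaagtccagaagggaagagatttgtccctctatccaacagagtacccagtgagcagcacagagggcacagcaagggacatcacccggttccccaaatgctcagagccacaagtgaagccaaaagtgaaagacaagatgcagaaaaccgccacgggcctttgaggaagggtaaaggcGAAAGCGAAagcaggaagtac
PSME1: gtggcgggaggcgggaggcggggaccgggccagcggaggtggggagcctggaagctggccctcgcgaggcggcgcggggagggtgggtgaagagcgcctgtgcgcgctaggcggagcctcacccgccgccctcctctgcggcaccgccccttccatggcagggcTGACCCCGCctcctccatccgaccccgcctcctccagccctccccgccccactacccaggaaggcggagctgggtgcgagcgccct
PSME2: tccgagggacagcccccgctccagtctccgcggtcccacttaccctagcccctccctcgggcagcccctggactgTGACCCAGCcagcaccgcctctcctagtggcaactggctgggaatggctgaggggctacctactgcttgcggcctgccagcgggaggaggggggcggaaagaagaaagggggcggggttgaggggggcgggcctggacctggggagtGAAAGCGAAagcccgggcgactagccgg
PSMB10 and PSME2 held the same 9 letters, GAAAGCGAA, at 21 to 13 and at 28 to 20 bases before the start. PSME1, PSME2 and PSMB9 held an antioxidant response element match, the last on the opposite strand, PSMB9 also held a CCAAT box, and PSMB8 held none of the 4 motifs in this window. The interferon-stimulated core was found in 12.2% of the proteasome promoters (5 of 41: PSMB10, PSME2, PSMA4, PSMB4 and PSMG4), and in 5.86% of 13728 promoters of all genes in the table. The antioxidant response element was found in 26.8% (11 of 41) against 11.7% of all promoters. The 11 were PSME1, PSME2, PSME4, PSMG1, PSMG2, PSMB3, PSMD3, PSMD5, PSMD9, PSMD12 and PSMB9. Of these, only PSMB3, PSMD3 and PSMD12 encode subunits of the constitutive core or the finished cap, since PSMD5 and PSMD9 encode chaperones. The CCAAT box was found in 43.9% against 34.5%, and the gamma-activated site in 9.76% against 5.71%. A match describes letters and does not show that a factor binds there.

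Most proteasome genes stood slightly lower in Cal51R, while the immunoproteasome genes and their activator stood higher. Of the 46 genes tested, 27 fell, 9 rose and 10 did not pass, where passing means an adjusted p under 0.05 in edgeR's quasi-likelihood test. Across all genes tested 70.8% passed, 35.5% lower and 35.3% higher in Cal51R, so that change itself was common in this comparison. Among the proteasome genes 58.7% fell and 19.6% rose. Their median log2 fold change was -0.30, against 0.02 for all genes, and single genes ranged from -1.01 to 0.60. The changes were small: PSMG1 alone passed with a change of 2-fold or more. Of the 13674 genes tested, 1350 passed lower and 1878 higher by that size. The median size of a change over all genes was 0.50 (log2, either direction). The lines did not overlap in CPM for 40 of the 46 genes, and for 85.0% of all genes tested.

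The size of the fall depended on how libraries were scaled. TMM, the scaling used throughout, sets the bulk of genes to no change, and scaling by library totals instead moved the median of all genes up by 0.20 (log2), so that 72.3% passed, 46.8% higher and 25.5% lower. With totals, 15 proteasome genes fell, 13 rose and 18 did not pass, and the median was -0.10. The 9 genes that rose under TMM also rose under library totals, and 15 of the 27 that fell did so under both scalings. The other 12 that fell with TMM (PSMA4, PSMA5, PSMB3, PSMB5, PSMC1, PSMC4, PSMD2, PSMD3, PSMD6, PSMD7, PSMD11 and PSMG2) did not pass with totals, and none of the 46 changed direction while passing under both. Without Cal51 replicate 1 the number that rose went from 9 to 4, which were PSMB6, PSMB10, PSME1 and PSME2.

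**Figure D1:**
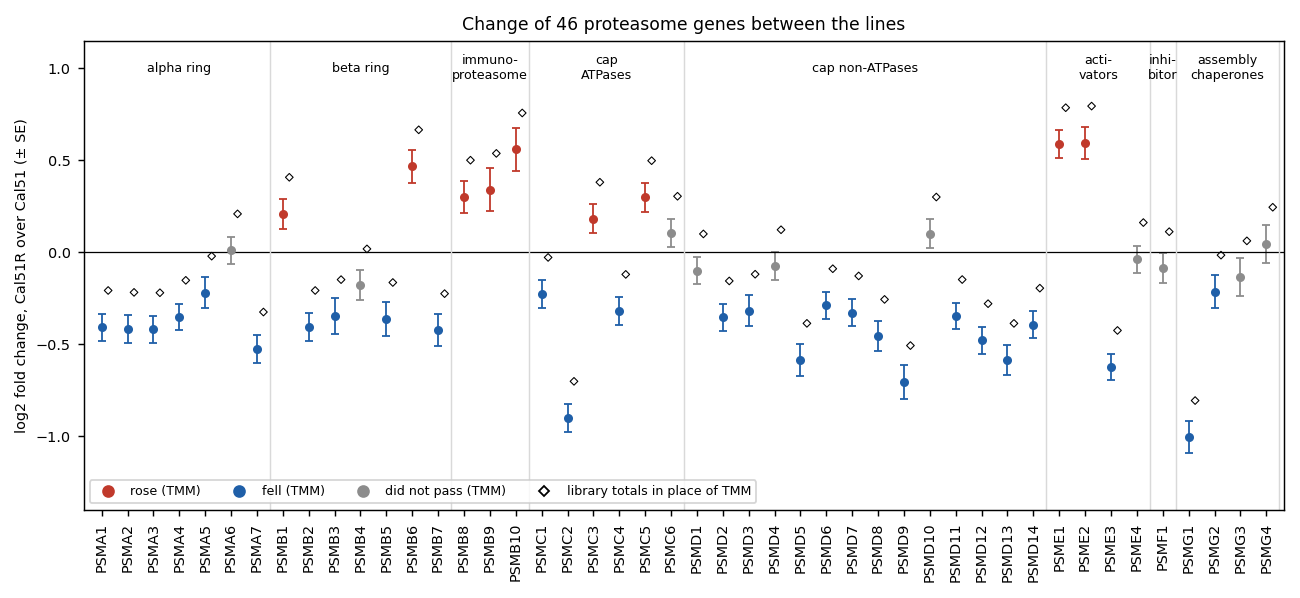
Log2 fold change of each tested proteasome gene, Cal51R over Cal51, with its standard error (filled points, TMM scaling; red rose, blue fell, grey did not pass) and the value with library totals (open diamonds), ordered by role. The 3 immunoproteasome genes, PSME1 and PSME2 lie above 0 under both scalings, while the alpha ring and the cap non-ATPases lie mostly below 0 with TMM and nearer 0 with library totals.

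Levels per transcript length (TPM) set the genes of the particle beside each other. The 31 genes of the constitutive core and cap, without the chaperones PSMD5, PSMD9 and PSMD10, summed to 8303 ± 155 TPM in Cal51 and 8436 ± 100 TPM in Cal51R (SD, n = 2 each), a ratio of 1.02. TPM sums to the same total in every library, and its median over all tested genes was 0.26 higher in Cal51R (log2), so a ratio near 1 on that scale and a fall under TMM describe the same reads. Proteasome genes of all roles took 0.621% to 0.663% of the reads in each library. PSMA6, an alpha subunit, had the highest level, at 644 and 647 TPM in Cal51 and 761 and 777 TPM in Cal51R. Within the 14 constitutive core genes, whose products enter the barrel in equal numbers, the highest level exceeded the lowest by 6.85-fold to 9.14-fold in each library. PSMA5 and PSMB2 made the low end, at 87.8 to 94.9 TPM and 85.0 to 98.0 TPM over the 4 libraries, and they changed order between the lines: PSMA5 lay below PSMB2 in both Cal51 libraries and above it in both Cal51R libraries. The order of the 31 levels was much alike between the lines (Spearman's rho 0.96, a description over 31 genes that share libraries).

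**Figure D2:**
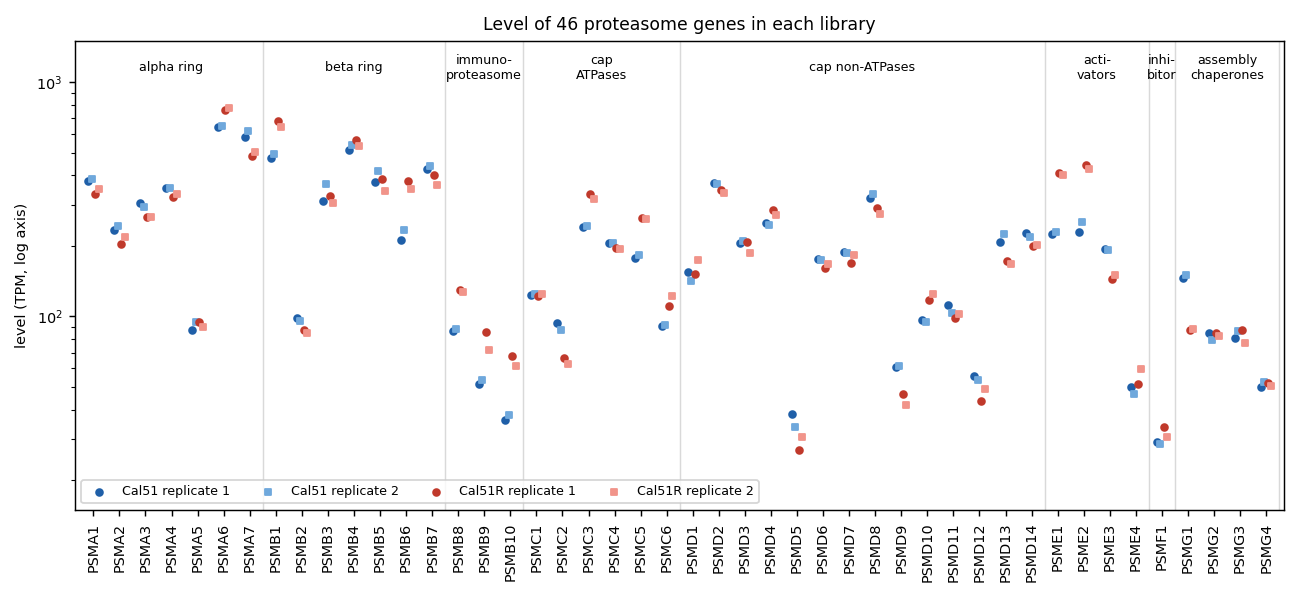
Level of the 46 tested proteasome genes in each of the 4 libraries, in TPM on a log axis, grouped by role; blue points are Cal51 and red points Cal51R, circles replicate 1 and squares replicate 2. Core genes spread from below 100 to 777 TPM, and the immunoproteasome genes, PSME1, PSME2 and PSMB6 show the clearest upward steps.

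The alpha ring stood lower in Cal51R as a group. Of its 7 genes 6 fell and PSMA6 did not pass, with a median log2 fold change of -0.41, and with library totals 4 fell, 1 rose and 2 did not pass. PSMA7, the alpha subunit with the largest fall, measured 248 and 278 CPM in Cal51 and 185 and 180.1 CPM in Cal51R. Both Cal51R libraries lay below both Cal51 libraries, and the log2 fold change was -0.52 (SE 0.076, edgeR adjusted p = 1.33e-05). PSMA3 measured 129 and 131 CPM in Cal51 against 101 and 93.9 CPM in Cal51R, and PSMA2 measured 152 and 165 against 118 and 119 CPM. Neither overlapped between the lines, and both fell by 0.42 on the log2 scale (SE 0.075 each, edgeR adjusted p = 0.000103 and 0.000106). PSMA1 fell by 0.41, PSMA4 by 0.35 and PSMA5 by 0.22, the last with an edgeR adjusted p of 0.0269 that was 0.137 without Cal51R replicate 2 and 0.347 without Cal51 replicate 2. PSMA6 measured 293 and 310.4 CPM in Cal51 and 311 and 296 CPM in Cal51R. The lines overlapped, and its fold was 1.01 with a 95% interval of 0.904 to 1.12 with TMM, while with library totals it rose by 0.21 on the log2 scale (edgeR adjusted p = 0.0134).

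The constitutive beta subunits divided, and so did the 3 catalytic ones. Of 7 genes 4 fell, 2 rose and PSMB4 did not pass, with a median log2 fold change of -0.35, and with library totals 2 fell, 2 rose and 3 did not pass. PSMB6, the beta1 caspase-like subunit, measured 76.8 and 89.2 CPM in Cal51 and 123 and 106 CPM in Cal51R. Both Cal51R libraries were higher, by 0.47 on the log2 scale (SE 0.091, edgeR adjusted p = 0.000253). PSMB7, the beta2 trypsin-like subunit, measured 187 and 203 CPM in Cal51 and 158 and 133 CPM in Cal51R. Both Cal51R libraries were lower, and the log2 fold change was -0.42 (SE 0.086, edgeR adjusted p = 0.000345). PSMB5, the beta5 chymotrypsin-like subunit and the main target of the drug bortezomib, measured 175 and 205 CPM in Cal51 and 161 and 134 CPM in Cal51R. The lines did not overlap, and the log2 fold change was -0.36 (SE 0.093, edgeR adjusted p = 0.0025), but the adjusted p was 0.0979 with library totals and 0.0602 without Cal51 replicate 2.

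Among the beta subunits without a catalytic site, PSMB2 measured 201 and 206 CPM in Cal51 and 161 and 145 CPM in Cal51R. It did not overlap between the lines and fell by 0.41 on the log2 scale (SE 0.076, edgeR adjusted p = 0.000161). PSMB1 measured 187 and 205 CPM in Cal51 against 241 and 213 CPM in Cal51R. The lines did not overlap, at a log2 fold change of 0.21 (edgeR adjusted p = 0.0295), and it did not pass when any library other than Cal51R replicate 2 was left out, with edgeR adjusted p up to 0.347. PSMB3 fell by 0.35, with an edgeR adjusted p of 0.00516 that was 0.184 without Cal51 replicate 2, and PSMB4 had a log2 fold change of -0.18 (edgeR adjusted p = 0.0576). PSMB11, the catalytic subunit of the proteasome of the thymus, was not tested, with 1 read in each Cal51R library and 0 in each Cal51 library.

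All 3 immunoproteasome subunits rose in Cal51R, from TPM levels below those of the subunits they replace. PSMB10, the beta2 replacement, measured 15.7 and 17.5 CPM in Cal51 and 26.4 and 22.4 CPM in Cal51R. Both Cal51R libraries were higher, by 0.56 on the log2 scale (SE 0.11, edgeR adjusted p = 0.000387). PSMB9, the beta1 replacement, measured 23.4 and 25.7 CPM in Cal51 and 34.9 and 27.2 CPM in Cal51R. Both Cal51R libraries were higher, the second by little, and PSMB9 rose by 0.34 on the log2 scale (SE 0.12, edgeR adjusted p = 0.0158) but did not pass without Cal51R replicate 1 (0.15, edgeR adjusted p = 0.215), without Cal51 replicate 1 (0.26, edgeR adjusted p = 0.118) or in DESeq2 (0.32, adjusted p = 0.0815). PSMB8, the beta5 replacement, measured 45.1 and 48.9 CPM in Cal51 and 60.5 and 55.3 CPM in Cal51R. The lines did not overlap, and the log2 fold change was 0.30 (SE 0.088, edgeR adjusted p = 0.00593), or 0.23 (edgeR adjusted p = 0.138) without Cal51 replicate 1.

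Ratios within a library do not depend on the scaling between libraries. The summed TPM of PSMB8, PSMB9 and PSMB10 over that of PSMB5, PSMB6 and PSMB7 was 0.172 and 0.165 in Cal51 and 0.243 and 0.246 in Cal51R. The ratio was thus 1.45-fold higher in Cal51R, a log2 difference of 0.54 against SDs of 0.039 and 0.013 between libraries. The 3 sites differed from each other in this. At beta2, PSMB10 over PSMB7 was 0.0844 and 0.0868 in Cal51 and 0.169 and 0.170 in Cal51R, 1.98-fold higher. At beta5, PSMB8 over PSMB5 was 0.230 and 0.212 against 0.336 and 0.368, 1.59-fold higher. At beta1, where PSMB6 rose as well, PSMB9 over PSMB6 was 0.243 and 0.230 in Cal51 and 0.226 and 0.205 in Cal51R, and the log2 difference was -0.13. With 2 libraries a line, an exact permutation test cannot give a p below 1 in 3, so these ratios carry no test.

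**Figure D3:**
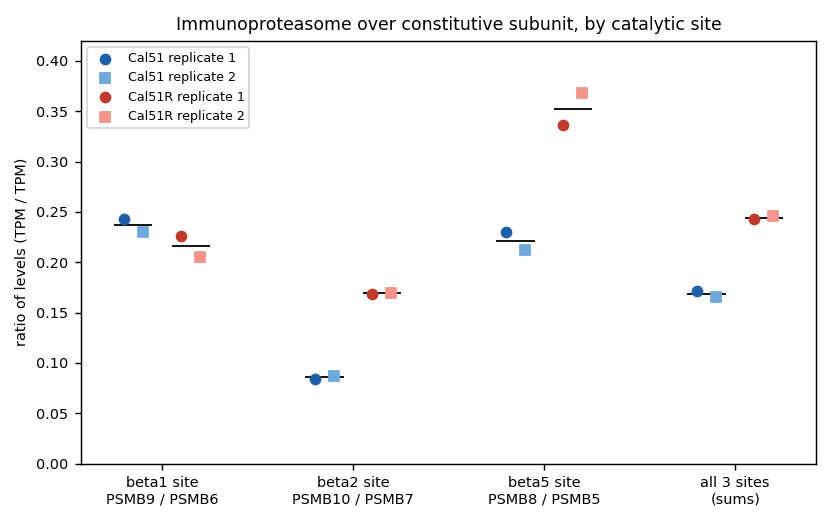
Ratio of the TPM of each immunoproteasome subunit to the constitutive subunit of the same catalytic site, in each library (blue Cal51, red Cal51R), with the mean of each line as a bar; the axis starts at 0. Cal51R lies above Cal51 at beta2, at beta5 and for the sums, and slightly below it at beta1.

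Leukocytes express the immunoproteasome constitutively, and their markers were therefore read beside it. The 7 leukocyte markers with a row summed to 21.3 and 22.2 CPM in Cal51 and 26.9 and 25.4 CPM in Cal51R. Of the 5 that were tested 3 rose and 2 fell, and all but CD68 are named here after their values were seen. PTPRC, the common leukocyte antigen, rose from 5 and 3 reads in Cal51 to 12 and 12 in Cal51R (edgeR adjusted p = 0.0255), and LYZ from 3 and 1 to 11 and 11 reads (edgeR adjusted p = 0.00555), both below 1 CPM in every library. CD74 rose from 6.99 and 7.33 to 24.2 and 22.2 CPM (log2 fold change 1.70, edgeR adjusted p = 3.09e-09). CD68, the most abundant of them in Cal51, fell from 11.6 and 11.2 to 1.43 and 1.95 CPM, and CD14 fell from 46 and 58 reads to 2 and 0 (edgeR adjusted p = 1.87e-09 and 3.74e-07). The list thus went both ways, and CD3E, which was not tested, had 0 or 1 read in each library.

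The 7 markers of fibroblasts and endothelium summed to 1742 and 1603 CPM in Cal51 and 545 and 540.4 CPM in Cal51R, and of the 5 tested 2 rose, 2 fell and 1 did not pass. COL1A2, a collagen gene and the most abundant, fell from 1675 and 1538 to 398 and 388 CPM (edgeR adjusted p = 1.2e-12). The endothelial markers went different ways, and they are named here after their values were seen. PECAM1 rose from 52.6 and 48.6 to 131 and 138 CPM (edgeR adjusted p = 1.48e-10). CDH5 rose from 3 and 6 to 80 and 83 reads (edgeR adjusted p = 6.67e-08). VWF did not pass, with a log2 fold change of -0.19 (edgeR adjusted p = 0.387). DCN and LUM, further fibroblast markers, had 0 to 4 reads. The part of any of these markers in the immunoproteasome result was not tested.

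The ATPases of the cap moved in both directions. Of 6 genes 3 fell, 2 rose and PSMC6 did not pass, and with library totals 1 fell, 3 rose and 2 did not pass. PSMC2 measured 107 and 107 CPM in Cal51 and 59.2 and 55.4 CPM in Cal51R. The lines were far apart, and the log2 fold change was -0.90 (SE 0.078, edgeR adjusted p = 3.15e-08), the largest fall among the subunits of core and cap. On the TPM scale the log2 difference of PSMC2 was -0.49 (93.5 and 87.2 TPM against 66.5 and 62.5 TPM). That scale differs from TMM in 2 ways here. Its median over all tested genes was 0.26 higher in Cal51R (log2), and the transcript length implied for PSMC2 in Cal51R was 0.889 of that in Cal51. PSMC4 measured 163 and 172 CPM in Cal51 and 139.7 and 129 CPM in Cal51R, and PSMC1 measured 187 and 201 against 169 and 161 CPM. Neither overlapped, and they fell by 0.32 and 0.23 on the log2 scale (edgeR adjusted p = 0.00121 and 0.0119), the second not without Cal51 replicate 2 (edgeR adjusted p = 0.19). With library totals neither PSMC4 nor PSMC1 passed, at log2 fold changes of -0.12 and -0.03 (edgeR adjusted p = 0.154 and 0.743). Reads of PSMC1 are uncertain, since 75.8% of its exon bases lie opposite exons of NRDE2 and 13 pseudogenes of it are annotated.

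PSMC5 measured 107 and 116 CPM in Cal51 and 142 and 132 CPM in Cal51R. It did not overlap and rose by 0.30 on the log2 scale (SE 0.077, edgeR adjusted p = 0.00265), but not without Cal51 replicate 1 (edgeR adjusted p = 0.106), and 19.5% of its exon bases lie opposite exons of FTSJ3. PSMC3 measured 169 and 180.4 CPM in Cal51 and 209.8 and 187 CPM in Cal51R. The lines did not overlap, but the log2 fold change of 0.18 sat at the threshold (edgeR adjusted p = 0.0476) and passed in leave-one-out fits only without Cal51R replicate 2, with edgeR adjusted p up to 0.383 in the others. PSMC6 had a log2 fold change of 0.10 (edgeR adjusted p = 0.223) with TMM and rose by 0.30 with library totals (edgeR adjusted p = 0.00198).

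The non-ATPase subunits of the cap fell more uniformly. Of 14 genes 11 fell, none rose and PSMD1, PSMD4 and PSMD10 did not pass, with a median log2 fold change of -0.35. Library totals left 6 that fell, 1 that rose and 7 that did not pass. PSMD9, PSMD5 and PSMD10 are chaperones that help to build the ATPase ring and leave before the cap is complete, and the largest fall of the 14 genes was in PSMD9. It measured 76.4 and 80.7 CPM in Cal51 and 52.5 and 43.9 CPM in Cal51R. Both Cal51R libraries lay lower, and PSMD9 fell by 0.71 on the log2 scale (SE 0.092, edgeR adjusted p = 4.07e-06). PSMD5 measured 60.0 and 55.7 CPM in Cal51 and 37.4 and 39.7 CPM in Cal51R. It fell by 0.59 without overlap (SE 0.087, edgeR adjusted p = 1.62e-05). The chaperone of the same group that did not pass was PSMD10, also called gankyrin, with 63.6 and 66.2 CPM in Cal51 and 70.0 and 69.2 CPM in Cal51R and a log2 fold change of 0.10 (edgeR adjusted p = 0.263), which was 0.30 with library totals (edgeR adjusted p = 0.00315).

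Among the structural subunits of the cap, PSMD13 measured 148 and 169.7 CPM in Cal51 and 111 and 101 CPM in Cal51R. The lines did not overlap, and the log2 fold change was -0.59 (SE 0.083, edgeR adjusted p = 1.03e-05). PSMD14, the metalloprotease that removes ubiquitin chains as the substrate enters, fell by 0.39 (edgeR adjusted p = 0.000143). PSMD12 fell by 0.48 and PSMD8 by 0.46, and these 4 fell under both scalings. PSMD2, PSMD3, PSMD6, PSMD7 and PSMD11 had log2 fold changes between -0.35 and -0.29 and passed with TMM but not with library totals, PSMD6 also not without Cal51 replicate 2 (edgeR adjusted p = 0.0676). The ubiquitin receptor PSMD4 and the scaffold PSMD1 had log2 fold changes of -0.08 and -0.10 (edgeR adjusted p = 0.387 and 0.227). For PSMD7, 30.7% of the exon bases lie opposite a non-coding transcript.

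The activators went in opposite directions. PSME1 and PSME2 are adjacent genes on chromosome 14, at 24136194 to 24138962 and 24143365 to 24146610 (GRCh38.p14), whose products form the interferon-inducible ring that opens the core without ATP. PSME1 measured 96.7 and 103 CPM in Cal51 and 157 and 143 CPM in Cal51R, and PSME2 measured 84.2 and 98.0 against 145 and 129.8 CPM. For both genes each Cal51R library exceeded each Cal51 library, with log2 fold changes of 0.59 and 0.60 (SE 0.077 and 0.087, edgeR adjusted p = 4.47e-06 and 1.39e-05). They kept one proportion, since PSME1 over PSME2 in TPM was 0.981 and 0.907 in Cal51 and 0.923 and 0.942 in Cal51R.

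PSME3, which forms a related ring of its own in the nucleus, measured 284 and 297 CPM in Cal51 and 192 and 185 CPM in Cal51R. It fell without overlap by 0.62 on the log2 scale (SE 0.072, edgeR adjusted p = 9.69e-07). PSME1 over PSME3 in TPM went from 1.16 and 1.19 in Cal51 to 2.81 and 2.65 in Cal51R, 2.32-fold higher. PSME4, a large nuclear activator linked to the degradation of acetylated histones, measured 168 and 165 CPM in Cal51 and 156 and 168 CPM in Cal51R. The lines overlapped, and its fold was 0.974 with a 95% interval of 0.874 to 1.08 (edgeR adjusted p = 0.649). PSMF1, which inhibits the core in vitro, measured 111 and 114 CPM in Cal51 and 114 and 97.2 CPM in Cal51R, overlapping, with a fold of 0.942 and a 95% interval of 0.833 to 1.06. It passed, as a fall of 0.21 on the log2 scale, without Cal51R replicate 1 (edgeR adjusted p = 0.0224).

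The chaperones of core assembly form pairs, PSMG1 with PSMG2 and PSMG3 with PSMG4, that guide the alpha ring. PSMG1 measured 71.0 and 76.4 CPM in Cal51 and 37.6 and 35.7 CPM in Cal51R. The lines were far apart, and the log2 fold change, -1.01 (SE 0.086; edgeR adjusted p = 2.59e-08), was the largest of all 46 genes. Its partner PSMG2 measured 40.4 and 40.0 CPM in Cal51 and 36.3 and 33.1 CPM in Cal51R. The log2 fold change was -0.21 (SE 0.091, edgeR adjusted p = 0.0438), and it did not pass with library totals (-0.02, edgeR adjusted p = 0.883) or when Cal51 replicate 1, Cal51 replicate 2 or Cal51R replicate 2 was left out (edgeR adjusted p = 0.157 to 0.181). PSMG3 measured 33.6 and 37.0 CPM in Cal51 and 35.0 and 29.2 CPM in Cal51R, and PSMG4 measured 20.4 and 20.1 against 21.6 and 20.3 CPM. Both overlapped between the lines, with log2 fold changes of -0.14 and 0.05 (edgeR adjusted p = 0.248 and 0.704). PSMG3 passed as a fall without Cal51R replicate 1 (edgeR adjusted p = 0.0123), and PSMG4 passed as a rise with library totals (0.24, edgeR adjusted p = 0.0453).

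Genes that work beside the proteasome were read from lists of its partners, to be set beside the 35.3% of all genes that rose and 35.5% that fell. The counts with library totals, here and in the lists below, are to be set beside 46.8% that rose and 25.5% that fell. Of 7 associated subunits 6 fell and TXNL1, named after its values were seen, did not pass, with a median log2 fold change of -0.35, and with library totals 3 fell, 1 rose and 3 did not pass. UCHL5, a deubiquitinase of the cap, measured 104 and 109 CPM in Cal51 and 53.1 and 53.5 CPM in Cal51R and fell by 0.99 on the log2 scale (SE 0.078, edgeR adjusted p = 8.97e-09), and its implied length in Cal51R was 0.855 of that in Cal51. The ubiquitin receptor ADRM1, which anchors UCHL5, fell by 0.42 (edgeR adjusted p = 0.00033). USP14, like UCHL5 and PSMD14 a deubiquitinase of the cap, fell by 0.35 with TMM (edgeR adjusted p = 0.000365). It did not pass with library totals (edgeR adjusted p = 0.0755). ECPAS, a scaffold that binds the holoenzyme, fell by 0.88 (edgeR adjusted p = 2.67e-08). SEM1, a small subunit of the cap, fell by 0.29 with TMM (edgeR adjusted p = 0.0138), and not with library totals or without Cal51 replicate 2. POMP, which chaperones the beta ring, measured 110.2 and 125 CPM in Cal51 and 89.9 and 84.3 CPM in Cal51R and fell by 0.43 (edgeR adjusted p = 0.000177), while the other 2 genes of its list did not pass.

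Of 5 shuttle receptors, which carry ubiquitylated proteins to the cap, 3 fell, 1 rose and 1 did not pass, and with library totals 3 fell and 2 rose. RAD23B, a shuttle that also serves in DNA damage recognition, measured 374 and 379 CPM in Cal51 and 119 and 118 CPM in Cal51R, a fall of 1.67 on the log2 scale (SE 0.073, edgeR adjusted p = 5.04e-12). UBQLN1 fell by 0.39 (edgeR adjusted p = 0.000121), and UBQLN2 rose by 0.76 (edgeR adjusted p = 6.41e-07). Of 16 genes of the unfoldase VCP and its cofactors 5 rose, 1 fell and 10 did not pass, and with library totals 12 rose, 1 fell and 3 did not pass. NPLOC4 rose by 0.39 and UBXN2B by 0.44, and UBXN8 fell by 0.47 (edgeR adjusted p = 0.000167, 0.000361 and 0.000651). Of 6 ubiquitin and E1 genes 2 rose, 2 fell and 2 did not pass, and with library totals 4 rose, none fell and 2 did not pass. UBA1, the main ubiquitin-activating enzyme, rose by 0.33 (edgeR adjusted p = 0.0014). UBA6 rose by 0.20 and RPS27A fell by 0.20 (edgeR adjusted p = 0.0279 and 0.0281), calls that 5 and 7 of the 13 alternatives ended.

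The regulators of proteasome transcription and their processing factors divided into 4 that rose, 3 that fell and 3 that did not pass, and with library totals 6 rose, 2 fell and 2 did not pass. NFE2L1 measured 321 and 326 CPM in Cal51 and 411 and 390.2 CPM in Cal51R. It did not overlap and rose by 0.31 on the log2 scale (SE 0.072, edgeR adjusted p = 0.00115). NFE2L3, its relative, rose by 1.01 and its small partner MAFF by 1.23, while another partner, MAFK, fell by 1.08 and the ubiquitin ligase RNF4 by 0.45 (edgeR adjusted p = 1.91e-08, 3.01e-08, 6.65e-08 and 4.11e-05). NFE2L1 is activated after translation, so its RNA does not measure its activity.

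Of 15 genes that process and load class I peptides 8 rose, 3 fell and 4 did not pass, with a median log2 fold change of 0.30, and with library totals 12 rose, none fell and 3 did not pass. TAP1, the peptide transporter gene that shares a promoter region with PSMB9, measured 141 and 143 CPM in Cal51 and 181 and 168 CPM in Cal51R and rose by 0.30 (SE 0.073, edgeR adjusted p = 0.00183). Its partner TAP2 had a log2 fold change of 0.16 that did not pass with TMM (edgeR adjusted p = 0.0778) and was 0.35 with library totals (edgeR adjusted p = 0.000644). TAPBPL, a peptide editor, rose by 1.49 and ERAP2, a peptide trimming enzyme, by 2.38, the latter from 1.67 and 1.51 to 7.69 and 9.00 CPM (edgeR adjusted p = 2.91e-08 and 2.95e-08). The chaperones PDIA3 and CALR fell by 0.35 and 0.34 with TMM (edgeR adjusted p = 0.00042 and 0.00112) and did not pass with library totals.

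Of 12 interferon regulators of the immunoproteasome 7 rose, 3 fell and 2 did not pass, with a median log2 fold change of 0.62, and with library totals 8 rose, 3 fell and 1 did not pass. IRF1, the transcription factor that drives the immunoproteasome genes after interferon gamma, measured 20.9 and 19.3 CPM in Cal51 and 112 and 108 CPM in Cal51R. It was 5.44-fold higher in Cal51R (2.44 on the log2 scale, SE 0.089, edgeR adjusted p = 4.94e-13). JAK2, a kinase of the interferon gamma receptor, rose by 1.17 on the log2 scale (edgeR adjusted p = 1.32e-07). Of the receptor chains IFNGR2 fell by 0.94 (edgeR adjusted p = 2.68e-08). The other chain, IFNGR1, named after its values were seen, rose by 0.80 (edgeR adjusted p = 1.9e-07). IRF3 fell by 0.44 and NLRC5, the activator of class I genes, by 0.74 from 9.11 and 8.20 to 5.25 and 5.10 CPM (edgeR adjusted p = 0.000361 and 0.000426).

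**Figure D4:**
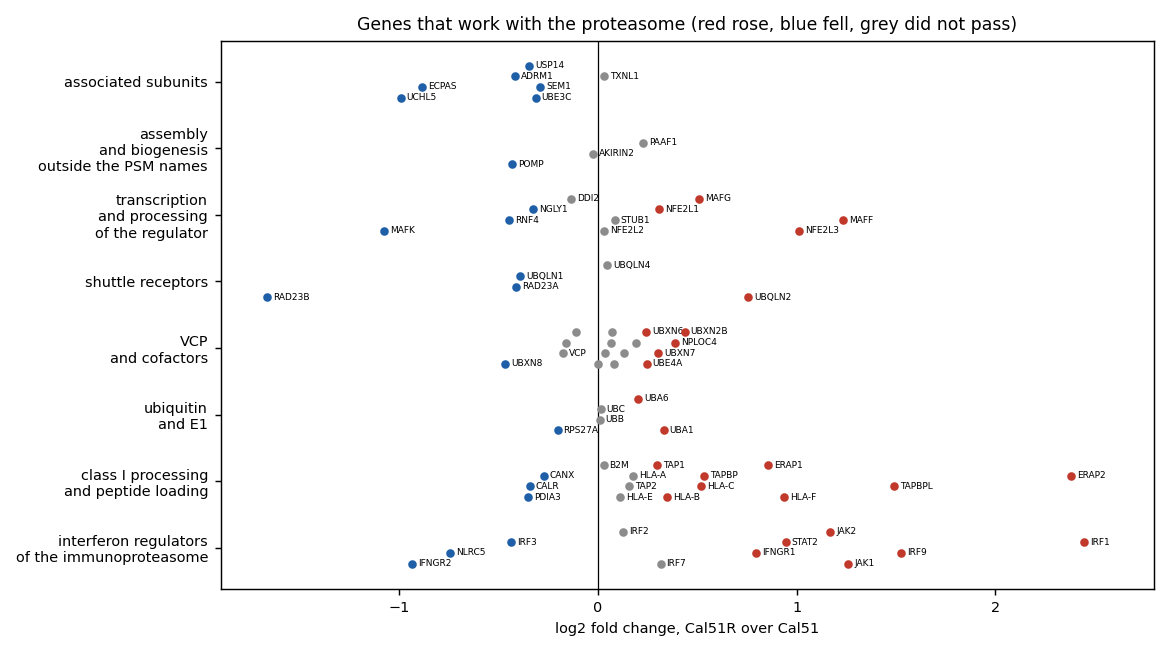
Log2 fold change, Cal51R over Cal51 with TMM scaling, of genes that work with the proteasome, in rows by list (red rose, blue fell, grey did not pass; unlabelled grey points are VCP cofactors that did not pass, and 2 genes of the lists are not shown). The associated subunits lie at or below 0, and the largest rises, of IRF1 and ERAP2, are in the class I and interferon rows.

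Proteasome genes are scattered over the genome, and the tested genes within 1 Mb of each gave a local reference. There were 3 to 54 such neighbours for each gene, proteasome genes left out. The median log2 fold change of the neighbours lay within 0.25 of 0 for 36 of the 46 genes. Across the 46 genes the fold change of the proteasome gene and the median of its neighbours correlated at Pearson's r = 0.41 and Spearman's rho = 0.46, a description over genes that share libraries and, in places, neighbours, and 28 of 46 had the same sign. PSMG1, on chromosome 21 at 39174769 to 39183514 (GRCh38.p14), had 8 neighbours with a median log2 fold change of -0.77, 5 of which fell and 1 of which rose. PSMD14 on chromosome 2 had a neighbour median of -0.62 over 4 genes and PSMA7 on chromosome 20 of -0.42 over 17 genes, and both genes fell with them. Around PSMB1, on chromosome 6, 7 of 8 neighbours rose and none fell, with a median of 0.59. PSMD7, PSMD5 and PSMD6 went the other way from their neighbours, whose medians were 0.50 over 12 genes, 0.41 over 14 and 0.46 over 3. PSMD10 and PSME4 did not pass, beside neighbour medians of 0.89 over 11 genes and 0.43 over 8 genes. For PSME1 and PSME2 the median was 0.19 over 46 genes, for PSMB8 and PSMB9 0.13 over 52, for PSMB10 -0.06 over 49 and for PSMC2 0.12 over 20. Copy number was not measured, and its part in these changes was not tested.

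**Figure D5:**
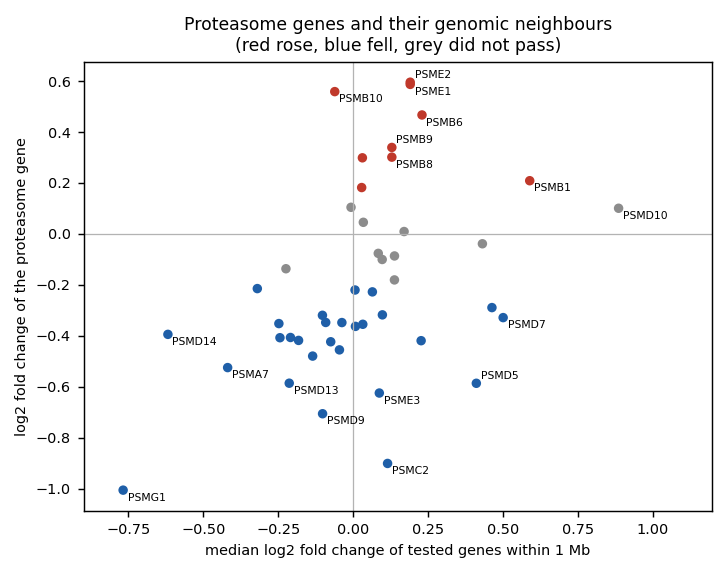
Log2 fold change of each tested proteasome gene against the median log2 fold change of the other tested genes within 1 Mb (red rose, blue fell, grey did not pass). PSMG1 lies at the lower left, with neighbours at -0.77, while PSMC2, PSME1, PSME2 and PSMB10 changed beside neighbours whose medians lay between -0.06 and 0.19.

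Counting could affect some of these values, since the sources used here do not say whether reads were counted by strand. By the GENCODE annotation, 20.6% of the exon bases of PSMB8 lie opposite PSMB8-AS1 and 139 of its bases opposite PSMB9, 19.6% of those of PSMA2 lie opposite a processed pseudogene and 13.3% of those of PSMG4 opposite SLC22A23. Annotated pseudogenes exist for 12 of the 47 genes, 32 in all, among them 4 of PSMA6, 3 each of PSMA2 and PSMD10, and 2 of PSME2, and how reads that fit both were placed is not given. The length implied by the deposited values was 1.23 times as long in Cal51R for PSMG4 and 1.10 times for PSMG3, against 1.00 for PSMB6, PSMB10 and PSME1.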

How the data were processed

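Polyadenylated RNA from 2 libraries each of Cal51 and Cal51R was sequenced as DNA nanoballs, per the labels' protocols. The build hg38 and the tools RSEM 1.2.8, HISAT2 2.1.0, DESeq and Bowtie2 2.2.5 stand in the submitters' processing notes, with no role for each. The sources used here do not give the gene annotation. The authors deposited, per the file headers, columns of read counts, FPKM and TPM for each library, and means for each line that were not used. The deposited counts are expected counts (27.0% to 31.8% of values exactly whole) and were rounded to whole numbers. The authors' FPKM values entered alternatives only, and the authors' TPM values served for levels between genes and for ratios. With no molecular identifiers given, detection limits cover counting error only.

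Lines were compared by the quasi-likelihood test of edgeR 4.0.16 (run in R 4.3.3), with TMM factors of 0.939 and 0.927 for Cal51 and 1.06 and 1.09 for Cal51R, the line alone in the model, and genes kept by filterByExpr at a minimum count of 10. It covered 13674 genes and left out 3541, with Benjamini-Hochberg adjustment over the genes tested and a threshold of 0.05. The typical coefficient of variation between libraries of a line was 5.83%. SE was derived from the log2 fold change and the square root of F, and CPM uses TMM-scaled totals. Alternatives were RLE factors, library totals, DESeq2 1.42.0, no filter, at least 5 CPM in 2 libraries, limma 3.58.1 on log2(FPKM + 1) and log2(FPKM + 0.1) for genes with at least 1 FPKM, leaving out libraries in turn, and a replicate block. Scripts were tested on simulated counts with known changes.

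Proteasome genes were found by symbol, and they and the partner and marker lists were chosen with earlier results of these data known. Values in every library are given for the catalytic and immunoproteasome subunits, the activators, the inhibitor, the assembly chaperones and, in each family, up to 3 genes in each direction by fold change; from each list, up to 2 genes each way with the smallest p and a few fixed regulators are named. Some genes that this takes are counted in their lists but not reported here. DDI1, IRF8, HLA-DRA and PGR were listed but are not analysed here. Positions and promoters come from RefSeq tables for GRCh38.p14, matched for 47 and 41 genes. For 38 of the 41, bases just downstream of the window lay in the first part of a GENCODE transcript of the gene. This checks strand and rough place, not that the window ends at a transcript start. The windows of PSMC2 and PSMG1, for example, reach past the gene start given by the positions.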

Additional observations from a re-analysis of the deposited data

How the results depend on the processing

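Of the 36 proteasome genes that passed, 19 kept their call and direction under all 13 alternatives, 17 lost it under at least 1, and none reversed while called; 7 of the 10 that did not pass did so under some alternative. The number that fell, 27, was 15 with library totals, with log2(FPKM + 1) and with log2(FPKM + 0.1), and the median log2 fold change of -0.30 was -0.10, -0.12 and -0.12 there. These 3 settings do not centre the libraries on the median gene. Leaving out each library in turn gave 21 to 30 that fell, 4 to 9 that rose and medians of -0.34 to -0.22, where the lone library of a line is assumed to vary like the other line. The log2 difference of the summed catalytic ratio, 0.54, was 0.67 for PSMB8 over PSMB5, 0.98 for PSMB10 over PSMB7 and reversed to -0.13 for PSMB9 over PSMB6, and 0.51 to 0.57 with libraries left out. With a replicate block 24 fell and 7 rose, with a median of -0.30, and the calls of PSMA5, PSMB1, PSMC1, PSMC3 and PSMG2 were lost. The labels link same-numbered libraries by their number alone, and the correlation of their deviations was -0.109. Whether such libraries share a culture date or batch is not known here. A replicate block with crossed numbers, added after seeing the data, gave 28 that fell and 9 that rose. Depth limits PSMB11, at or under 1 read in every library.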
